A study of Sus scrofa with 2 samples.

Results

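The potassium channel genes described here are those whose symbol begins with KCN, apart from the inward rectifiers (KCNJ genes) and the genes KCNQ1 and KCNE1. They encode pore-forming subunits of the voltage-gated, calcium-activated, sodium-activated and tandem pore domain channels, silent subunits that modify other channels, and the auxiliary subunits and regulators that bind them. A feature was taken when its gene symbol, or its Ensembl pig name where the symbol was blank, 0 or not given, began with KCN. This gave 67 features of 66 symbols among 27622 features in all, with 12 of the 67 named through Ensembl. KCNA10 is the symbol with 2 features.

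RNA was sequenced from stria vascularis (SV) dissected with the lateral wall of the cochlea of Rongchang pigs. There was 1 library of genotype MITF R/r and 1 library of genotype MITF r/r. R is the wild-type allele, and r holds an insertion that creates a silencer in the melanocyte-specific promoter region of MITF. Both libraries thus came from carriers of r, and the R/r library served as the comparison. The sample labels give the age of both as postnatal day 1, whereas the paper describes an embryonic stage, and this conflict could not be resolved from the files. Expression is given as RPKM, mapped reads scaled to the exon length of the gene and to library depth.

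The SV is the epithelium of the lateral wall that makes endolymph and holds its high potassium concentration. Basolateral pumps and cotransporters load potassium into marginal cells, channels of KCNQ1 and KCNE1 in their apical membrane release it to the endolymph, and inward rectifiers of the melanocyte-derived intermediate cells set the electrical potential of the tissue. The KCN genes outside this core pathway set resting potential, repolarise excitable cells or assist in channel assembly, and many of them are best known from neurons, muscle and other epithelia.

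The reads behind the RPKM values were worked out from the ratios between low values, and gave 15829244 reads for the R/r library and 14258672 reads for the r/r library. A single read on 1 kb of gene model is worth 0.0632 RPKM in the R/r library and 0.0701 RPKM in the r/r library. Differences are log2 ratios of RPKM, r/r over R/r, with an exact (Clopper-Pearson) 95% interval computed from the reads. The interval covers counting error only. Each genotype had 1 library, so there was no replicate check and no p-value, and every difference is between these libraries and not between the genotypes.

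The tissue label was compared with defining markers. CLDN11 of basal cells had 840 RPKM in R/r SV and 706 RPKM in r/r SV, and COCH of fibrocytes had 6826 and 4914 RPKM. Of the fibrocyte list, 5 genes had at least 1 RPKM in both SVs, with 3 log2 ratios below 0 and 2 above. SLC26A4 of this list was low, with 0.209 and 0.116 RPKM. DCT, a melanocyte enzyme, had 171 RPKM in R/r SV and 1.19 RPKM in r/r SV. MITF itself was listed as 3 features, the highest of them with 51.7 RPKM in R/r SV and 37.8 RPKM in r/r SV, and these values do not separate its isoforms. Markers of basal cells and fibrocytes were therefore present in both SVs, and DCT was high in R/r SV alone.

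Most of the channel genes were expressed at low levels. Of the 67 features, 25 reached 1 RPKM in both SVs, 2 in R/r SV alone and 2 in r/r SV alone, and 38 stayed under 1 in both. Of all 27622 features, 16023 reached 1 RPKM in R/r SV, 15922 in r/r SV and 15529 in both. A mean of 5 RPKM or more was reached by 5 features, or 7.46%, against 40.6% of all features. The highest member, KCNK1, was exceeded by 19.3% of all features in R/r SV and by 20.7% in r/r SV. The members together summed to 99.9 RPKM in R/r SV and 100.5 RPKM in r/r SV, a log2 ratio of 0.01 whose sign turned under scaling to TPM, at -0.03, so that no direction was read from it. The 5 features of highest mean made up 51.5% of this sum in R/r SV and 46.4% in r/r SV. These 5, KCNK1, KCNMB2, KCNIP1, KCNN1 and KCNE3, held ranks 1 to 5 in the same order in both SVs. Among the 12 highest members of each library, 9 were shared.

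**Figure D1:**
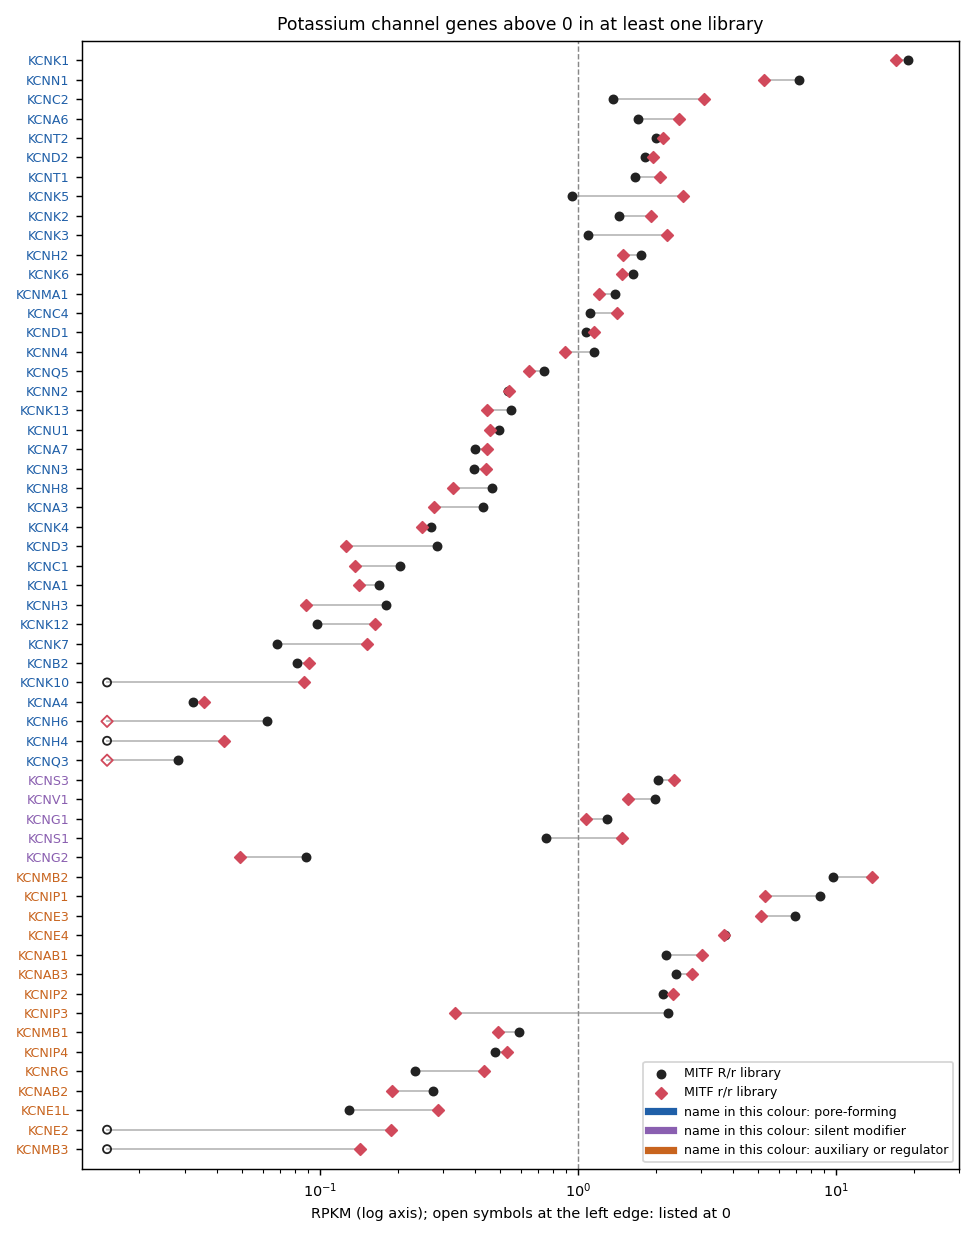
RPKM values (log axis) of 57 of the 60 members above 0 in at least one library, with circles for the R/r library, diamonds for the r/r library and a dashed line at RPKM 1. Most pairs lie close together, KCNK1 is highest with 19.0 and 17.1 RPKM, and KCNIP3 shows the widest gap among members above RPKM 1, from 2.24 to 0.334 RPKM.

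A ratio was computed for the 29 features that were above 0 in both SVs and had at least 1 RPKM in at least one. Of these 29, 4 (13.8%) were at least 2-fold apart, against 3.99% of the 16331 features compared in the same way. KCNIP3 was lower in r/r SV, where 2.20% of all features were at least 2-fold lower. KCNK5, KCNC2 and KCNK3 were higher, where 1.78% of all features were at least 2-fold higher. Among features with a mean of 1 to 5 RPKM, the range of these 4 genes, 8.34% were at least 2-fold apart, against 4 of 24 members in that range (16.7%). KCNK3, at 2.01-fold, was just inside the threshold, and KCNS1, at 1.97-fold, just outside it. A count of 4 genes with 1 of them at the threshold says little about the group as a whole. The median log2 ratio of the 29 members was 0.10, against -0.02 over all features compared, with 13 members below 0 and 16 above. The sign of this median depended on the minimum, at -0.057 with none and -0.43 with a minimum of 5 RPKM, where 5 members were left, so no direction was read from it.

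The 95% interval lay wholly below no change for 3 members, KCNIP3, KCNIP1 and KCNN1, which is 10.3% of the 29 against 14.5% of all features. It lay wholly above no change for 6 members, KCNK5, KCNC2, KCNK3, KCNS1, KCNMB2 and KCNAB1, which is 20.7% against 11.2%. In the range of 1 to 5 RPKM, the background shares were 10.0% below and 6.58% above, and the members numbered 1 and 5 of 24. The members had fewer reads than other features, with a median of 94 over both libraries against 446, so that smaller differences could pass unseen. The other 20 intervals included no change.

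**Figure D2:**
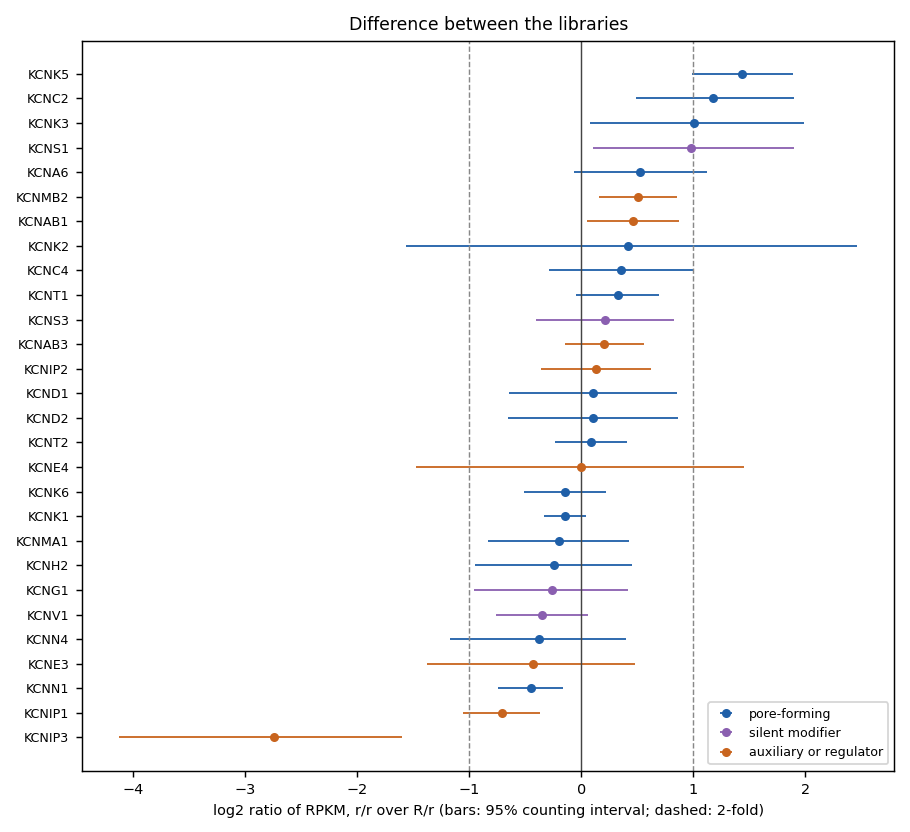
Log2 ratio of RPKM, r/r over R/r, of 28 of the 29 members compared, ordered by value, with bars for the 95% counting interval and dashed lines at 2-fold. KCNIP3 lies at -2.74 with its interval wholly beyond 2-fold, KCNK5 lies at 1.43, and 19 intervals cross 0.

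**Figure D3:**
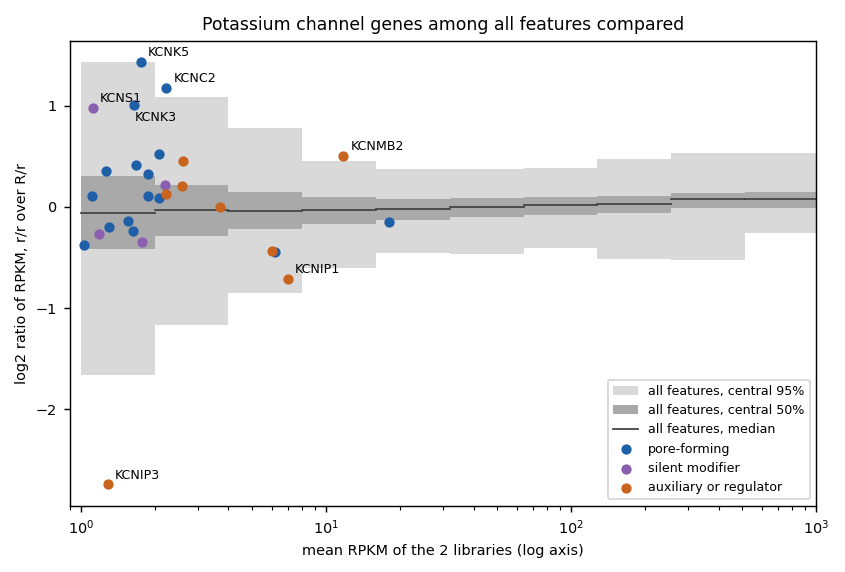
The same log2 ratios plotted against the mean RPKM of both libraries (log axis), over grey bands that hold the central 50% and 95% of all features compared in each range of mean RPKM. KCNIP3 lies below the 95% band, KCNC2 and KCNMB2 lie above it, KCNK5 lies at its upper edge, and the band is widest at low RPKM.

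The tandem pore domain genes, which encode leak channels that hold the resting potential, had the highest summed RPKM of all subfamilies, 25.1 in R/r SV and 26.4 in r/r SV. KCNK1 (ENSSSCG00000010163), the weakly rectifying TWIK1, made up 75.7% of this sum in R/r SV and 64.9% in r/r SV. It had 19.0 RPKM from 523 reads in R/r SV and 17.1 RPKM from 425 reads in r/r SV. The interval of -0.34 to 0.04 about its log2 ratio of -0.15 included no change, so the most abundant channel gene of the set did not differ detectably at this depth. The other 11 KCNK features summed to 6.11 RPKM in R/r SV and 9.26 RPKM in r/r SV.

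KCNK5 (ENSSSCG00000025423), the acid-sensitive TASK2 channel of kidney and other epithelia, had 0.948 RPKM from 60 reads in R/r SV and 2.56 RPKM from 146 reads in r/r SV. It was 2.70-fold higher in r/r SV (log2 ratio 1.43, interval 0.99 to 1.89), and 0.796% of the features compared had a higher ratio. Its rank among the members moved from 28 to 10. With a pseudocount of 1 RPKM its log2 ratio was 0.87, under 2-fold. KCNK3 (ENSSSCG00000008563), the related TASK1 channel closed by extracellular acid, had 1.10 RPKM from 16 reads in R/r SV and 2.21 RPKM from 29 reads in r/r SV. The log2 ratio was 1.01 (0.08 to 1.99), so that the direction of KCNK3 rests on few reads. With TPM scaling it was 0.97, under 2-fold. KCNK5 and KCNK3 were thus higher in r/r SV, KCNK5 with a narrower interval. KCNK3 overlaps a gene of a long non-coding RNA in a later assembly of the pig genome, and its share of the reads was not tested.

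The remaining KCNK genes compared were KCNK6 and KCNK2. KCNK6, the TWIK2 channel, had 1.63 RPKM in R/r SV and 1.48 RPKM in r/r SV, a log2 ratio of -0.14 (-0.51 to 0.22). KCNK2, the stretch-sensitive TREK1 channel, had 1.44 and 1.92 RPKM. Only 11 reads were worked out for both values together, although the true reads may be a multiple. Its interval of -1.56 to 2.46 includes differences of more than 2-fold in each direction, so no difference could be read for KCNK2. KCNK4, KCNK7, KCNK10, KCNK12 and KCNK13 stayed under 1 RPKM in both SVs, and KCNK15 and KCNK17 were listed at 0 in both.

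The voltage-gated subfamilies KCNA to KCND carry the classical delayed rectifier and transient currents. KCNC genes encode fast-activating channels that allow rapid firing. KCNC2 (ENSSSCG00000000516), encoding Kv3.2, had 1.36 RPKM from 27 reads in R/r SV and 3.09 RPKM from 55 reads in r/r SV. It was 2.26-fold higher in r/r SV (log2 ratio 1.18, interval 0.49 to 1.90), and moved from rank 21 to rank 7 among the members. With a pseudocount of 1 RPKM its log2 ratio was 0.79, under 2-fold. KCNC4 had 1.11 and 1.42 RPKM, a log2 ratio of 0.35 with an interval that included no change.

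KCNA genes encode the Shaker channels, and KCNA6 was the only one of them above 1 RPKM. It had 1.71 RPKM from 44 reads in R/r SV and 2.45 RPKM from 57 reads in r/r SV, and the interval of -0.07 to 1.13 about its log2 ratio of 0.52 includes no change. KCNA1, KCNA3, KCNA4 and KCNA7 were under 1 RPKM in both SVs, and both KCNA10 features (ENSSSCG00000006803 and ENSSSCG00000025354) were listed at 0 in both. KCND2, which encodes the Kv4.2 channel of transient currents, had 1.81 RPKM in R/r SV and 1.95 RPKM in r/r SV. The KCND genes summed to 3.17 and 3.23 RPKM, a log2 ratio of 0.03 that turned to -0.01 with TPM.

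The ether-a-go-go (KCNH) genes summed to 2.47 RPKM in R/r SV and 1.95 RPKM in r/r SV. KCNH2, the repolarising channel of heart muscle, was the highest, with 1.76 RPKM from 42 reads in R/r SV and 1.49 RPKM from 32 reads in r/r SV. Its log2 ratio of -0.24 (-0.95 to 0.46) includes no change. Of the KCNQ genes other than KCNQ1, KCNQ5 had 0.740 RPKM in R/r SV and 0.647 RPKM in r/r SV, and KCNQ3 had 1 read in R/r SV and was listed at 0 in r/r SV.

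Calcium-activated channels had one well expressed member. KCNN1 (ENSSSCG00000013892), the small-conductance SK1 channel that follows intracellular calcium, had 7.16 RPKM from 250 reads in R/r SV and 5.25 RPKM from 165 reads in r/r SV. It was lower in r/r SV (log2 ratio -0.45, interval -0.74 to -0.16), which is short of 2-fold. Of all features compared, 9.13% had a lower ratio than KCNN1. KCNN4, the intermediate-conductance channel of epithelia and blood cells, had 1.16 and 0.893 RPKM, with an interval of -1.17 to 0.40. KCNMA1, the pore of the large-conductance BK channel, had 1.39 RPKM from 51 reads in R/r SV and 1.21 RPKM from 40 reads in r/r SV. The values of KCNN4 and KCNMA1 were within counting error, and KCNN2 and KCNN3 stayed under 1 RPKM in both SVs.

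The sodium-activated genes had similar values in both SVs. KCNT2, the Slick channel, had 2.01 RPKM from 166 reads in R/r SV and 2.14 RPKM from 159 reads in r/r SV (log2 ratio 0.09, interval -0.23 to 0.41). KCNT1, the Slack channel, had 1.67 and 2.09 RPKM and a log2 ratio of 0.32 (-0.05 to 0.70). Both intervals include no change, and that of KCNT2 lies within 1.5-fold in each direction. KCNU1, the SLO3 channel of sperm, had 0.496 RPKM in R/r SV and 0.455 RPKM in r/r SV.

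**Figure D4:**
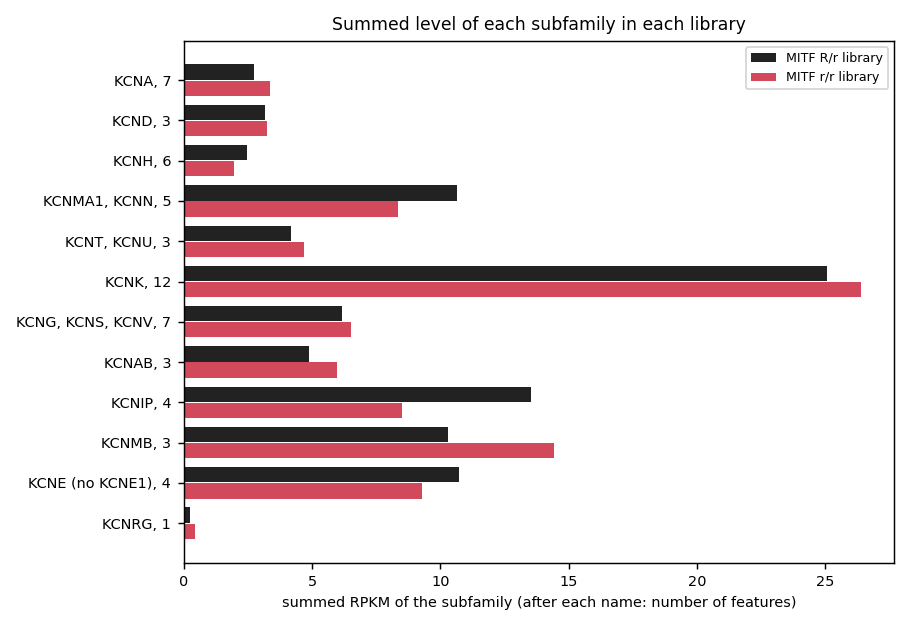
Summed RPKM of 12 subfamilies in the R/r library (black) and the r/r library (red), with the number of features after each name and bars that start at 0. KCNK is highest in both libraries, KCNIP is lower in the r/r library (13.5 and 8.51 RPKM), and KCNMB is higher there (10.3 and 14.4 RPKM).

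Silent modifiers of the KCNG, KCNS and KCNV groups form no channel alone and change the gating of other voltage-gated channels in mixed tetramers. They summed to 6.15 RPKM in R/r SV and 6.52 RPKM in r/r SV. KCNS1 (ENSSSCG00000007385) had 0.751 RPKM from 18 reads in R/r SV and 1.48 RPKM from 32 reads in r/r SV. Its log2 ratio of 0.98 (0.10 to 1.90) lay above no change, with a wide interval. KCNS3 had 2.04 and 2.36 RPKM, KCNV1 had 1.98 and 1.56 RPKM, and KCNG1 had 1.29 and 1.08 RPKM, and their intervals included no change. KCNG2 was under 1 RPKM in both SVs, and KCNG3 and KCNV2 were listed at 0.

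The KCNIP genes encode calcium-binding proteins that join KCND channels and speed their traffic to the membrane. They summed to 13.5 RPKM in R/r SV and 8.51 RPKM in r/r SV, a log2 ratio of -0.67, whereas the KCND genes they serve were at 3.17 and 3.23 RPKM. KCNIP3 (ENSSSCG00000008119), also known as calsenilin or DREAM and able to bind DNA as a calcium-sensitive repressor, had 2.24 RPKM from 52 reads in R/r SV and 0.334 RPKM from 7 reads in r/r SV. It was 6.69-fold lower in r/r SV (log2 ratio -2.74, interval -4.13 to -1.60), and it was the only member whose interval lay wholly beyond 2-fold. Of all features compared, 0.190% had a lower ratio. Its rank among the members went from 8 to 39. KCNIP3 therefore showed the widest difference of the 29 members compared.

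KCNIP1 (ENSSSCG00000017003) was the most abundant gene of this group, with 8.68 RPKM from 203 reads in R/r SV and 5.31 RPKM from 112 reads in r/r SV. It was 1.63-fold lower in r/r SV (log2 ratio -0.71, interval -1.05 to -0.37). KCNIP1 overlaps KCNMB1 in a later assembly of the pig genome, and KCNMB1 had only 0.590 and 0.491 RPKM. KCNIP2, the partner of cardiac KCND channels, had 2.13 RPKM in R/r SV and 2.33 RPKM in r/r SV, with an interval of -0.36 to 0.62 about its log2 ratio of 0.13. KCNIP1 and KCNIP3 were thus lower in r/r SV, and KCNIP2 was within counting error.

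The KCNMB genes encode the beta subunits that tune calcium sensitivity and inactivation of the BK channel. KCNMB2 (ENSSSCG00000011761), which confers rapid inactivation, had 9.71 RPKM from 125 reads in R/r SV and 13.8 RPKM from 160 reads in r/r SV. It was 1.42-fold higher in r/r SV (log2 ratio 0.51, interval 0.16 to 0.86). The pore gene KCNMA1, at 1.39 and 1.21 RPKM, lay well below its beta subunit in both SVs. KCNMB3 had 1 read in r/r SV and was listed at 0 in R/r SV.

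The KCNAB genes encode oxidoreductase-like beta subunits of the Shaker channels, and summed to 4.87 RPKM in R/r SV and 5.98 RPKM in r/r SV. KCNAB1 (ENSSSCG00000025810), which speeds inactivation, had 2.20 RPKM from 93 reads in R/r SV and 3.02 RPKM from 115 reads in r/r SV. Its log2 ratio of 0.46 (0.05 to 0.87) lay above no change by a small margin. KCNAB1 overlaps SSR3, a gene of the translocon with 92.1 RPKM in R/r SV and 85.5 RPKM in r/r SV, and the reads of overlapping genes could not be told apart since the use of strand in counting is not stated. KCNAB3 had 2.40 and 2.76 RPKM with a log2 ratio of 0.20 (-0.15 to 0.56), and KCNAB2 stayed under 1 RPKM. Of the 29 members compared, 8 overlap another gene in the later assembly, 2 of them a protein-coding gene. Among the others, KCNK3 and KCNMB2 overlap genes of long non-coding RNAs.

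KCNE genes other than KCNE1 encode small membrane proteins that alter the gating of KCNQ1 and other channels. KCNE3 (ENSSSCG00000029323), which keeps KCNQ1 open in gut and airway epithelia, had 6.91 RPKM from 27 reads in R/r SV and 5.11 RPKM from 18 reads in r/r SV. KCNE4, an inhibitor of KCNQ1, had 3.69 RPKM from 10 reads in R/r SV and 3.69 RPKM from 9 reads in r/r SV. The gene models worked out for both were short, so few reads stood behind these RPKM values unless the true reads are a multiple. The intervals of -1.38 to 0.48 for KCNE3 and -1.48 to 1.45 for KCNE4 include no change. KCNE1L had 0.129 and 0.287 RPKM from 3 reads in all, and KCNE2 had 1 read in r/r SV. KCNRG, a regulator that hinders the assembly of Shaker channels, had 0.233 RPKM in R/r SV and 0.431 RPKM in r/r SV from 8 reads in all, and it overlaps TRIM13.

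The other 38 features gave no ratio above the minimum. Of these, 25 were above 0 in both SVs and had a median of 13 reads in all, and none of their intervals excluded no change. A further 6 features were listed at 0 in one SV, with from 1 to 3 reads in the other. A count of 0 allows up to 3 reads, so that these 6 were not detectable as different. The remaining 7 features (10.4%) were listed at 0 in both SVs, against 24.5% of all features. Of all 27622 features, 1515 were listed at 0 in one SV.

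Other genes that act with these channels were compared in the same way. Of 18 partner genes outside the KCN names, 16 were found and 12 were compared, and 0 of these were at least 2-fold apart, with a median log2 ratio of -0.06. The intervals of 3 partners lay below no change, among them the kinase WNK4 and the lysosomal channel TMEM175, against 14.5% of all features. The potassium chloride cotransporters, of which 4 of 7 were compared, had a median of 0.16, with 0 genes at least 2-fold apart. Of the 4 genes, 3 had intervals above no change, against 11.2% of all features. They had a median of 4934 reads against 446 over all features compared, so that smaller differences could lie outside counting error. SLC12A2, which loads potassium into marginal cells, had 312 and 334 RPKM.

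Markers of other cells of the lateral wall and of neighbouring tissue also differed between the SVs, and in a bulk sample fewer cells of a type and less RNA per cell cannot be told apart. Of the melanocyte list, 12 of 12 genes were found, 10 were compared and 8 of these were at least 2-fold lower in r/r SV. The list summed to 319 RPKM in R/r SV and 18.3 RPKM in r/r SV, and its most abundant gene was DCT in R/r SV and SLC24A5, at 6.92 RPKM, in r/r SV. OCA2 had 2.47 and 2.54 RPKM, and TYRP1 had 1 read in each SV. MLANA was above 1 RPKM in R/r SV and was listed at 0 in r/r SV. Only 4 reads were worked out for MLANA in R/r SV, and the true reads may be a multiple. Its counting interval was computed from this lowest count and would be too wide if the true reads were a multiple. No conclusion was therefore drawn from the interval, and it is no sign that MLANA was alike in both SVs. The marginal cell list (7 of 9 found, 0 of 7 at least 2-fold apart) summed to 1048 and 621 RPKM, led by ATP1B2. The bone list (11 of 11 found, 3 features at least 2-fold lower) summed to 1062 and 694 RPKM, led by IBSP. The neuron list (10 of 12 found) had 2 genes compared, of which GAP43 was at least 2-fold lower, and summed to 10.7 and 6.39 RPKM, with NEFH at 0 in both SVs. NEFL of this list, under 1 RPKM in both SVs, went the other way, from 3 reads in R/r SV to 35 reads in r/r SV. The skeletal and cardiac muscle list (8 of 12 found) summed to 64.3 and 85.1 RPKM, but 4 of its 6 ratios were below 0. MYH6 was at least 2-fold higher (19.2 and 40.1 RPKM), MYH1 (2.98 and 0.445 RPKM) and TNNT1 (6.66 and 3.16 RPKM) were at least 2-fold lower, and ACTA1 and MYOG had 0 reads in R/r SV and 1 read each in r/r SV. The other 10 of 15 lists, whose sums were less than 1.3-fold apart, had log2 ratios of their sums between -0.28 and 0.12; this split was chosen after the values were seen. The part of any of these cell types in the values of the channel genes was not tested.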

How the data were processed

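RNA from SV was sequenced in 1 library per genotype. The authors filtered the paired-end reads, aligned them to Sscrofa10.2 with TopHat2 2.0.7 and deposited RPKM values; the counting program and gene annotation are not given in the sources used here. The deposited RPKM values were used unchanged, and 2 further columns without headings, holding differences and ratios for some rows, were not used. Log2 ratios had no pseudocount. Features were compared where neither library was at 0 and either reached 1 RPKM, with 2-fold as the threshold. Whole reads were worked out from the commonest ratio of low values (1.11) and from totals that made 77.2% of 3000 gene lengths whole to 0.01 base; true reads may be a multiple. Steps were tested on simulated data. Genes named are the highest of each subfamily, the 12 highest members, those at least 2-fold apart, those with intervals on one side of no change and symbols with several features, with list genes beside their list; other members are named to account for the rest. Some genes are not reported here. Members and lists were chosen with earlier results of these data known. Alternatives changed pseudocount, minimum, threshold, scaling and features per symbol. Overlaps came from RefSeq (Sscrofa11.1), by name only. Work was done in Python 3.11.15 with pandas 2.3.3, numpy 2.4.6, matplotlib 3.10.9 and scipy 1.17.1.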

Additional observations from a re-analysis of the deposited data

How the results depend on the processing

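No paired analysis was possible because each genotype had 1 library. The 4 members at least 2-fold apart became 1 with a pseudocount of 1 RPKM, 8 with no minimum, 0 with a minimum of 5, 1 at 4-fold and 1 when the interval had to lie wholly beyond 2-fold. The minimum, the fold and the interval act by construction, since they set which members can be counted. The pseudocount also acts by construction, since adding 1 RPKM to both values pulls the ratios of low members toward no change. Scaling to the median ratio, the upper quartile or TPM gave 4, 4 and 3. The median log2 ratio of 0.10 became -0.057 with no minimum and -0.43 with a minimum of 5, where 5 members were left, and lay between 0.07 and 0.12 under the scalings. Members at RPKM of at least 5 in both libraries numbered 5. The median of the channel partners was -0.10 with TPM. Of 45 values of 9 single members under alternatives, 2 left their interval, KCNIP3 at -1.28 and KCNK5 at 0.87 with a pseudocount of 1, and 0 changed sign. Adding KV1.2 and KV1.5, chosen after seeing the data and named in the table outside the KCN symbols, left the count at 4. The background in the range of 1 to 5 RPKM and a minimum of 20 reads were also chosen after seeing the data. Among the members compared, KCNK2, KCNE4, KCNIP3, KCNK3 and KCNE3 had the widest intervals.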
